A study of Canis lupus familiaris with 8 samples.

Results

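The canine let-7 microRNAs (miRNAs) cfa-let-7a, cfa-let-7b, cfa-let-7c, cfa-let-7e, cfa-let-7f and cfa-let-7g, written below without the species prefix, were followed through 2 related mammary tumour cell lines and the stem-like cells sorted from them. They were taken by name, and not by their values, as 6 of the 454 miRNAs on the array and 12 of its 998 probes. Let-7 miRNAs share a seed, the stretch near the 5′ end that pairs with target transcripts. They accumulate as cells differentiate and lower the products of growth-promoting genes such as RAS, HMGA2 and MYC. The RNA-binding proteins LIN28A and LIN28B block their maturation in stem cells, and in human breast tumours low let-7 has been described as a feature of cells with tumour-initiating capacity.

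The lines were CMT-Stylo (Stylo), a doxorubicin-sensitive canine mammary tumour line, and CMT-Star (Star), made from Stylo by months of exposure to rising doxorubicin, a DNA-intercalating drug, until the cells resisted 100 nM. The unsorted lines are called parents here. Cells positive for CD44 and for aldehyde dehydrogenase, with low or no CD24, were sorted from each line by flow cytometry and are called CSC, as in the labels. All cells grew in medium with 10% serum, and the 4 groups (Star CSC, Star parent, Stylo CSC and Stylo parent) had 2 samples each. Star is a single derived line, so a difference from Stylo is a difference between 2 cultures. Doxorubicin at 100 nM is listed for the Star samples and none for the Stylo samples. Drug exposure and resistance therefore cannot be told apart between the lines. The labels do not say whether the replicates were separate cultures, so the p-values cover the spread between samples of a group only, and that spread may be technical.

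Total RNA was hybridised to 1-colour Agilent arrays, and some features of the series bear on the let-7 values. The scanner values of the 2 Stylo parent replicates were identical, so they were counted as 1 sample, which left 7 arrays. Replicate 1 of Stylo CSC was on a slide of its own (slide 2), the other arrays on slide 1. The value table deposited with the series followed the scanner files in 6 columns and departed from them for replicate 1 of Stylo CSC and replicate 2 of Stylo parent. Each comparison is therefore given over all 7 arrays (46 miRNAs tested), over the 6 arrays of slide 1 (50 tested, with a single array for each Stylo group) and over the 8 columns of the value table, turned back into log2 totals and called recovered totals (56 tested). The last 2 sets were chosen with earlier results of these data known and share 6 arrays, so they are not independent of each other. Spots well above background made up 4.19% to 8.78% of an array, and 0 spots were saturated. Markers of the labelled epithelial tissue were well above background on no array (0 of 7, with a summed signal of 0 to 5.65), nor were muscle (0 of 4), neural (0 of 3), liver (0 of 1) and endothelial (0 of 1) markers. Of the haematopoietic markers 1 of 7 was, miR-223, on 1 array, and their summed signal ran from 51.1 to 66.3. CD44, CD24 and aldehyde dehydrogenase are not measured by a miRNA array.

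All 6 members could be tested. Each member has 2 probes, and detection of a probe required more than 50% of its spots to be well above background. By that count let-7a, let-7b and let-7e were well above background through both probes on all 7 arrays, and let-7c and let-7f through the brighter probe on all 7 and the dimmer probe on 5. Let-7g was measured through its brighter probe on 5 arrays only. It was not well above background on the arrays of Stylo CSC replicate 1 and Stylo parent, and it was undetected in the value table's columns of Stylo CSC replicate 1 and Stylo parent replicate 2. Let-7g therefore passed the filter through the Star arrays, and its Stylo values are near the detection limit. Other family members on the array, let-7d, let-7j and miR-98, were well above background on 0 arrays.

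The family held a large share of the signal. The 6 members made up 60.5% and 62.0% of the summed signal of all miRNAs well above background on the Star CSC arrays. The share was 52.3% and 51.6% on the Star parent arrays, 57.8% on the slide 1 array of Stylo CSC and 61.9% on the Stylo parent array. Both Star CSC arrays thus lay above both Star parent arrays, and the slide 2 array of Stylo CSC lay apart at 35.3%. Among the recovered totals the columns of Star CSC gave 59.5% and 61.9%, those of Star parent 51.0% and 50.6%, those of Stylo CSC 64.4% and 56.1%, and those of Stylo parent 60.4% and 66.0%. The number of miRNAs behind the shares differed, from 24 to 49 on the arrays and from 25 to 72 in the columns. The columns with the highest shares, Stylo parent replicate 2 and Stylo CSC replicate 1, held the fewest detected miRNAs (25 and 30). A share of signal is no share of molecules, since probes differ in brightness.

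**Figure D1:**
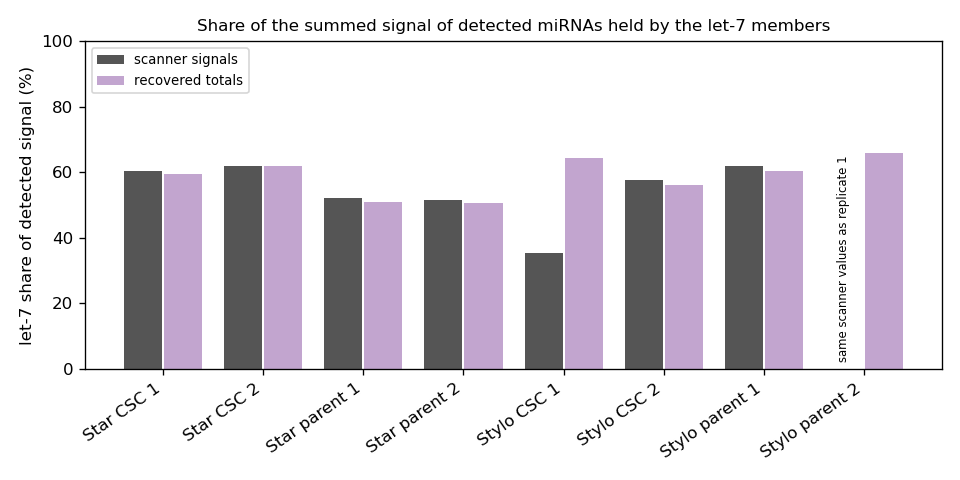
Share of the summed signal of detected miRNAs held by the 6 let-7 members, in percent, for each array (grey) and each column of the recovered totals (violet). The Star CSC bars lie at 59.5% to 62.0% and the Star parent bars at 50.6% to 52.3%, while the scanner bar of Stylo CSC replicate 1 stands at 35.3%; Stylo parent replicate 2 has no scanner bar of its own.

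The 2 probes of let-7a, let-7b and let-7e kept close ratios on slide 1. The brighter probe of let-7a gave 3.49 to 3.81 times the signal of the dimmer on the 6 slide 1 arrays, that of let-7b 2.30 to 2.88 times and that of let-7e 3.30 to 3.96 times. On the slide 2 array the ratios were 2.21 for let-7a, 1.67 for let-7b and 1.90 for let-7e, below every slide 1 array. For let-7c and let-7f the slide 2 ratios of 8.75 and 8.49 were near those of slide 1, 7.08 to 8.91 and 7.36 to 8.44. For let-7g, whose dimmer probe was well above background on no array, the ratio ran from 4.10 to 8.42 on slide 1. The probe pairs of let-7a, let-7b and let-7e were thus read unevenly on that array, and each value below that rests on it is also given without it.

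**Figure D2:**
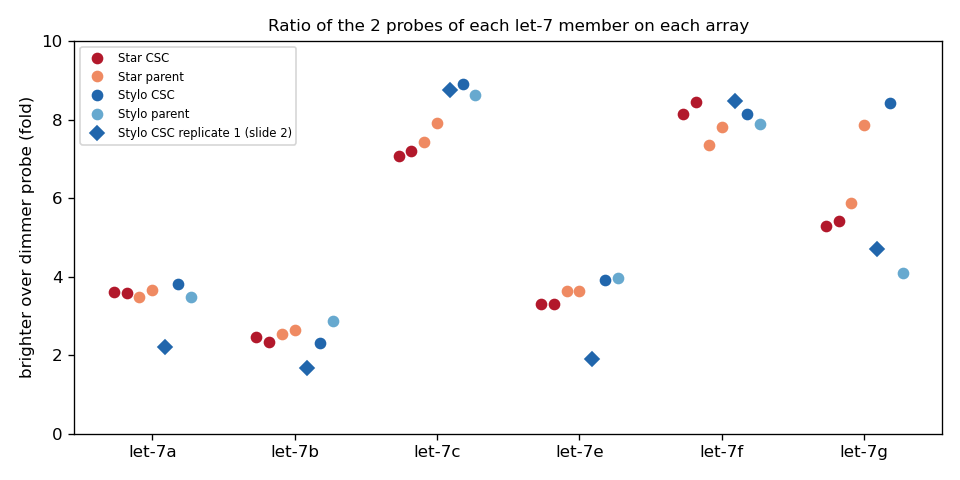
Signal of the brighter probe over that of the dimmer probe (fold, linear axis from 0) for each let-7 member on each of the 7 arrays, with points coloured by group and a diamond for the slide 2 array of Stylo CSC. The diamond lies below all circles for let-7a (2.21), let-7b (1.67) and let-7e (1.90) and close to the circles for let-7c and let-7f; let-7g's dimmer probe was never well above background.

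The levels below are log2 signals after scaling, comparable between arrays for 1 member and not between members, whose probes differ. Let-7a, the member best known for restraining RAS, had levels of 2.29 and 2.28 in Star CSC, 1.76 and 1.77 in Star parent, 1.53 and 2.23 in Stylo CSC (slide 2 first) and 2.19 in Stylo parent. Among the recovered totals, scaled on their own, its Stylo CSC columns stood at 2.61 and 2.52 and its Stylo parent columns at 2.09 and 2.17, on either side of Star CSC (2.40 and 2.40), with Star parent lowest (1.86 and 1.83). Let-7a was thus lowest in Star parent in the recovered totals, where the columns of no 2 groups overlapped. Over all 7 arrays the slide 2 array was lowest.

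Let-7b had levels of 2.997 and 2.95 in Star CSC, 2.60 and 2.67 in Star parent, 1.46 and 2.89 in Stylo CSC and 3.50 in Stylo parent. Its recovered totals were 3.103 and 3.08 in Star CSC, 2.71 and 2.73 in Star parent, 3.24 and 3.19 in Stylo CSC and 3.41 and 3.33 in Stylo parent. Stylo parent was highest and Star parent lowest in the recovered totals, with Stylo CSC and Star CSC between. Let-7e followed the same Star pattern, at 0.96 and 0.95 in Star CSC and 0.47 and 0.47 in Star parent. Its Stylo CSC arrays read −1.35 and 0.41, a gap larger than any between groups, and its Stylo parent array 1.21. The recovered totals of let-7e were 1.07 and 1.07 in Star CSC, 0.57 and 0.53 in Star parent, 0.65 and 0.70 in Stylo CSC and 1.11 and 1.19 in Stylo parent. For let-7e, Stylo CSC lay close to Star parent, and Star CSC close to Stylo parent.

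Let-7c stood at −0.07 and 0.00 in Star CSC, −0.67 and −0.68 in Star parent, −0.69 and −0.34 in Stylo CSC and −0.15 in Stylo parent. Its recovered totals were 0.04 and 0.12 in Star CSC, −0.57 and −0.62 in Star parent, −0.08 and −0.04 in Stylo CSC and −0.24 and −0.27 in Stylo parent. Let-7c was thus highest in Star CSC and lowest in Star parent there, with no overlap between groups. Let-7f stood at −0.21 and −0.13 in Star CSC, −0.71 and −0.69 in Star parent, −0.32 and −0.45 in Stylo CSC and −0.42 in Stylo parent, so that for let-7f the slide 2 array did not stand apart. Let-7f's recovered totals were −0.11 and −0.01 in Star CSC, −0.15 and −0.16 in Stylo CSC, −0.51 and −0.69 in Stylo parent and −0.60 and −0.63 in Star parent. Both sorted groups lay above both parents for let-7f, and the 2 parents overlapped. Let-7g stood at −2.72 and −2.76 in Star CSC and −3.59 and −3.61 in Star parent, the last of these at the floor set for dim signals. Its Stylo values were −3.13 (slide 2, not well above background) and −3.55 in Stylo CSC and −3.14 (not well above background) in Stylo parent. Where the value table held a let-7g total, the recovered totals were −2.87 and −2.88 in Star CSC, −3.72 and −3.72 in Star parent, −3.42 in Stylo CSC and −3.55 in Stylo parent. Star CSC was thus highest for let-7g in both sources.

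**Figure D3:**
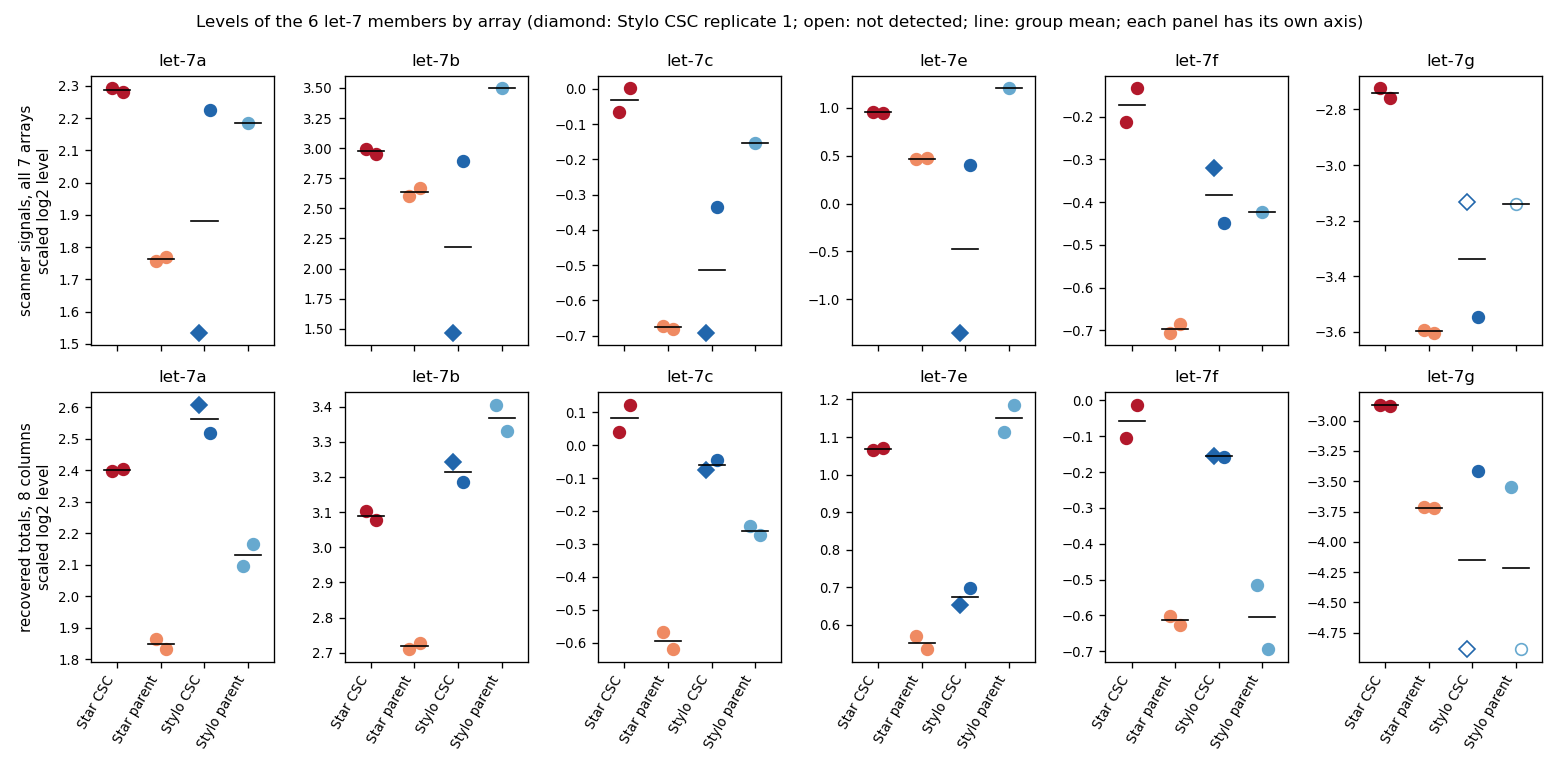
Scaled log2 level of each let-7 member by group, for the 7 arrays (upper row) and the 8 columns of the recovered totals (lower row), with 1 point per array or column and a line at the group mean. Each panel has its own axis, diamonds mark Stylo CSC replicate 1 and open symbols values not detected. Star CSC lies above Star parent in all 12 panels, and the upper-row diamond of let-7e (−1.35) stands far below the other arrays. The Star points of both rows come from the same arrays.

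The sorted cells of the resistant line were compared with their parent, which asks how let-7 levels differ with the sorted phenotype. All 6 members had higher levels in Star CSC than in Star parent. On slide 1 all 6 passed the threshold, with log2 changes of 0.45 ± 0.04 (SE) for let-7a, 0.27 ± 0.03 for let-7b, 0.57 ± 0.05 for let-7c, 0.42 ± 0.04 for let-7e, 0.45 ± 0.04 for let-7f and 0.79 ± 0.05 for let-7g (n = 2 and 2; limma, adjusted p from 0.00759 to 0.0145). As folds these ran from 1.21 for let-7b to 1.73 for let-7g. The 5 members other than let-7g passed in the recovered totals, at 0.55 ± 0.06, 0.37 ± 0.06, 0.67 ± 0.06, 0.52 ± 0.06 and 0.56 ± 0.08 in the same order (adjusted p from 0.00115 to 0.00614). Let-7g had a change of 0.84 ± 0.64 there (adjusted p = 0.433). The Star columns of the value table followed their scanner files. Both sets thus rest on the same Star arrays in this comparison, and the recovered totals are no replicate of slide 1.

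These counts stand beside a wide movement of other miRNAs: 28% of the 50 miRNAs tested on slide 1 passed as higher and 24% as lower, and 19.6% of the 56 in the recovered totals passed as higher. The members' median was 0.45 on slide 1 and 0.55 in the recovered totals, where the median of all tested miRNAs was 0 and 0.09. The values over all 7 arrays were like these (0.52, 0.34, 0.64, 0.48, 0.52 and 0.86), but none of the 6 passed by limma (0 of 6, against 2.17% of the 46 tested; 3 of 6 at an unadjusted p below 0.05; adjusted p from 0.0738 to 0.768). The arrays of the 2 groups did not overlap for 6 of 6 members, as they did not in the same direction for 41.3% of the tested miRNAs. Leaving Stylo CSC replicate 1 out of the 7 arrays leaves the slide 1 arrays. Counts given that way repeat the slide 1 counts, here and in the comparisons below. The errors over all 7 arrays hold the spread between the 2 Stylo CSC arrays. Without either of those arrays 6 of 6 passed, and with only the 4 Star arrays in the fit 6 of 6 passed as well.

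The 2 probes of let-7a, which were both well above background on all slide 1 arrays, moved alike in Star CSC, by 0.45 and 0.45. Those of let-7b moved by 0.24 (brighter) and 0.35, and those of let-7e by 0.39 and 0.52. The slide 1 calls needed both Star CSC arrays: 0 of 6 passed without either one, 5 of 6 without either Star parent array. From the recovered totals 4 of 6 passed without Stylo CSC replicate 1 or without Stylo parent replicate 2, and 5 of 6 without any other column. With scaling to a percentile of all probes, which are mostly background, 0 of 6 passed in any comparison on slide 1 while the median change in Star CSC was 1.31. Quantile normalization, which fixes the values of a given rank, set let-7a and let-7b at 0.00, and normexp background correction turned let-7g to −0.11. Under every other scaling each member was above 0 in Star CSC.

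Brightness bears on this comparison. The summed signal of the 6 members before scaling was 8404 and 7514 on the Star CSC arrays and 4058 and 3940 on the Star parent arrays, and that of the other miRNAs well above background was 5480 and 4598 against 3700 and 3694. Both sums were thus higher in Star CSC, that of let-7 by more. Without scaling the median change of all 46 tested miRNAs was 0.53 and that of the members 1.08, a gap of 0.54. The gap was 0.52 with scaling and 0.55 when the 8 let-7 probes among the 22 used for scaling were left out. MiR-223, the haematopoietic marker well above background on 1 array, is near the detection limit on the others. Its values in Star CSC were −0.67 on slide 1, −0.57 for the recovered totals and −0.56 over all 7 arrays (adjusted p = 0.00759, 0.789 and 0.392), and its part in the result was not tested. In bulk RNA a larger share of cells with let-7 and more let-7 per cell cannot be told apart.

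**Figure D4:**
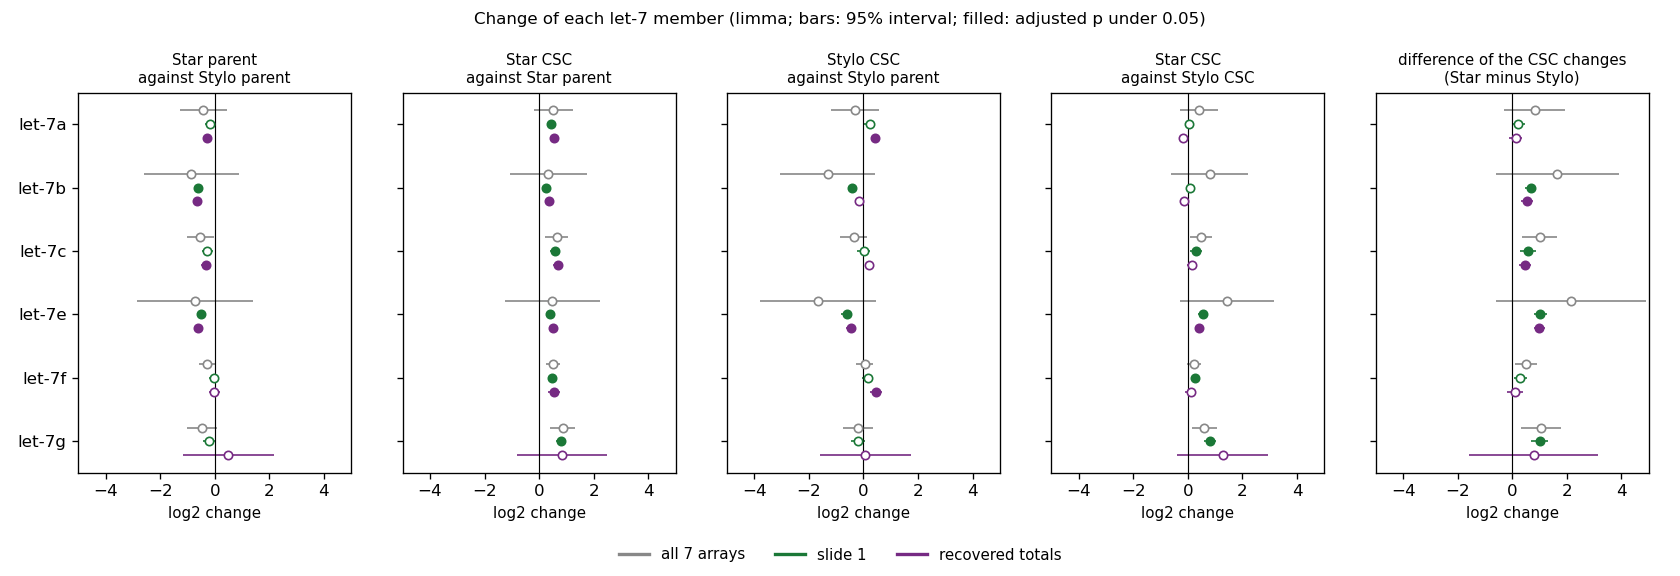
Log2 change of each let-7 member in the 5 comparisons, over all 7 arrays (grey), slide 1 (green) and the recovered totals (violet). Points are limma estimates with 95% intervals and are filled where the adjusted p is under 0.05. In Star CSC against Star parent every point lies right of 0 (0.27 to 0.86), and in Star parent against Stylo parent let-7b and let-7e lie left of it in all sets (−0.48 to −0.86). The Star values of all sets come from the same arrays.

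The resistant and the sensitive parent lines were compared to see how their let-7 levels differ. Let-7b and let-7e were lower in Star parent. On slide 1 let-7b fell by 0.61 on the log2 scale (SE 0.04, 1.53-fold; limma, adjusted p = 0.00995) and let-7e by 0.48 (SE 0.05, 1.40-fold; adjusted p = 0.0181), from 2 arrays against 1. The other 4 members did not pass, with let-7a at −0.17, let-7c at −0.27, let-7f at −0.02 and let-7g at −0.21 (adjusted p from 0.0598 to 0.798); the let-7g value is against an undetected Stylo parent signal. The recovered totals, with 2 columns a group, had let-7b (−0.65 ± 0.06, adjusted p = 0.00144), let-7e (−0.60 ± 0.06, 0.00165), let-7c (−0.33 ± 0.06, 0.0139) and let-7a (−0.28 ± 0.06, 0.0298) lower. Let-7f was at −0.01 ± 0.08 (adjusted p = 1) with overlapping columns, and the 95% interval of its change ran from −0.22 to 0.20. Let-7g, undetected in 1 Stylo parent column, stood at 0.50 (adjusted p = 0.697), the other direction from slide 1. Of the 2 Stylo parent columns, that of replicate 2 departs from its scanner file, which is identical to that of replicate 1. No Star column departs, so in the recovered totals the lines also differ in this. The column of Stylo CSC replicate 1 departs as well. Each Stylo group there thus holds 1 column whose origin is not given, and p-values with these groups do not rest on known replicates.

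The 2 of 6 members called lower on slide 1 stand against 20% of all tested miRNAs, and the 4 of 6 in the recovered totals against 14.3%. All 6 values over all 7 arrays lay below 0, from −0.27 for let-7f to −0.86 for let-7b, and 0 of 6 passed (1 at an unadjusted p below 0.05; 2.17% of the tested miRNAs passed). The median of all 46 tested miRNAs was itself −0.25 there. Leaving out the scaling turned let-7a, let-7c, let-7f and let-7g to 0.15, 0.05, 0.29 and 0.05, whereas let-7b (−0.29) and let-7e (−0.17) stayed below 0; the median of all tested miRNAs was 0.17 in that setting. The lower calls were lost without scaling: 0 members passed on slide 1 (let-7b at an adjusted p of 0.166, let-7e at 0.343), and in the recovered totals 0 passed as lower (0.0755 and 0.125) and 1 as higher. The slide 1 count was 1 without Star CSC replicate 1 and 0 without Star CSC replicate 2 or either Star parent array. For the recovered totals it was 2 without Star parent replicate 1 or Stylo parent replicate 2 and 3 without Star parent replicate 2. Without either Stylo CSC array, 2 (replicate 1 out) and 6 (replicate 2 out) of the 6 members were called over all 7 arrays.

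In the sensitive line, sorted cells and parent differed in another way. Let-7e was lower in Stylo CSC, by 0.61 on slide 1 (SE 0.06, 1.53-fold, 1 array against 1; adjusted p = 0.0129), and in the recovered totals it dropped by 0.47 (SE 0.06, 1.39-fold, n = 2 and 2; adjusted p = 0.00573). Let-7b fell by 0.41 on slide 1 (adjusted p = 0.017) and was at −0.15 in the recovered totals (adjusted p = 0.137). Let-7a and let-7f were higher in the recovered totals, by 0.43 ± 0.06 (adjusted p = 0.00899) and 0.45 ± 0.08 (adjusted p = 0.016). On slide 1 they were at 0.23 and 0.16 and did not pass (adjusted p = 0.0806 and 0.132). Let-7c was at 0.00 and 0.20 (adjusted p = 1 and 0.0709) and let-7g at −0.22 and 0.06 (adjusted p = 0.129 and 1). The lower calls were lost without scaling, where let-7e stood at −0.31 on slide 1 and −0.38 in the recovered totals (adjusted p = 0.163 and 0.0575) and let-7b at −0.11 and −0.06 (adjusted p = 0.537 and 0.938), while 2 members passed as higher in the recovered totals.

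Thus 2 of 6 members were called lower on slide 1, against 24% of all tested miRNAs, and in the recovered totals 2 were called higher, against 17.9%, and 1 lower, against 12.5%. Slide 1 holds no spread within Stylo, so its tests borrow the spread of the Star arrays. None of the 6 passed over all 7 arrays (0 of 6 by limma and 0 at an unadjusted p below 0.05, with 2.17% of all tested miRNAs called), with values from −1.68 for let-7e and −1.32 for let-7b to 0.04 for let-7f. Without the slide 2 array these 2 stood at −0.61 and −0.41, as given above. When Stylo CSC replicate 2 is left out of the 7 arrays, the slide 2 array alone stands for Stylo CSC. Group and slide then cannot be told apart, here and in the comparisons with Stylo CSC below. The brighter and dimmer probes of let-7e fell alike on slide 1, by 0.61 and 0.60, whereas those of let-7b fell by 0.51 and 0.18. The slide 1 count was 0 without either Star CSC array and 1 without either Star parent array. The recovered totals gave 2 without Stylo CSC replicate 1 and 1 without Stylo parent replicate 2, and with all 7 arrays 2 passed without Stylo CSC replicate 1 and 4 without replicate 2.

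Between the sorted cells of the 2 lines, let-7e was higher in Star CSC, by 0.54 ± 0.05 on slide 1 (1.46-fold; adjusted p = 0.0166) and by 0.39 ± 0.06 in the recovered totals (1.31-fold; adjusted p = 0.0109). On slide 1 let-7c (0.30 ± 0.06), let-7f (0.27 ± 0.05) and let-7g (0.80 ± 0.07) passed as well (adjusted p = 0.0441, 0.0392 and 0.0131), which made 4 of 6 against 28% of all tested miRNAs. Those 3 were at 0.14, 0.10 and 1.28 in the recovered totals and did not pass (adjusted p = 0.176, 0.503 and 0.227), so that 1 of 6 was called against 10.7% of all. Let-7a and let-7b passed in neither set, at 0.06 and 0.07 on slide 1 and −0.16 and −0.13 in the recovered totals. Their 95% intervals in the recovered totals ran from −0.33 to 0.00 and from −0.28 to 0.03. The members' median there was 0.12 and that of all tested miRNAs 0.11. Without scaling let-7a and let-7b were at 0.69 and 0.71 on slide 1 and 0.59 and 0.63 in the recovered totals. In the latter, 6 of 6 members then passed as higher (limma, adjusted p from 0.000781 to 0.0152), and 31 of 56 tested miRNAs passed in either direction. The near-equality of let-7a and let-7b thus depends on the scaling. Values over all 7 arrays lay between 0.21 for let-7f and 1.43 for let-7e and 0 of 6 passed (2 at an unadjusted p below 0.05; 6.52% of the tested miRNAs passed). On slide 1, 0 of 6 passed without either Star CSC array, 2 without either Star parent array and 6 without the Stylo parent array. With all 7 arrays in use, 4 passed without Stylo CSC replicate 1 and 5 without Stylo CSC replicate 2.

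The change from parent to CSC was then set against itself between the lines, as Star minus Stylo. Let-7e differed most, by 1.03 ± 0.07 on slide 1 (adjusted p = 0.00753) and 0.99 ± 0.08 in the recovered totals (adjusted p = 0.000931). Let-7b (0.68 ± 0.06 and 0.52 ± 0.08) and let-7c (0.57 ± 0.09 and 0.48 ± 0.09) also differed in both sets (adjusted p from 0.00934 to 0.0307). Let-7g stood at 1.01 ± 0.09 on slide 1 (adjusted p = 0.0114) and 0.78 ± 0.91 in the recovered totals (adjusted p = 0.743), but its probes fell short of detection on the array of Stylo parent, so its slide 1 value is a difference from an undetected signal. Let-7a (0.23 and 0.12) and let-7f (0.29 and 0.11) passed in neither set (adjusted p from 0.0695 to 0.735). The counts of 4 of 6 (let-7g included) and 3 of 6, all higher, stand against 20% and 17.9% of all tested miRNAs called higher. The differences over all 7 arrays ran from 0.49 to 2.16 and 0 of 6 passed (3 at an unadjusted p below 0.05; 0 of 46 miRNAs, or 0%, were called). The slide 1 count was 1 without either Star CSC array. For all 7 arrays it was 4 without Stylo CSC replicate 1 and 6 without Stylo CSC replicate 2. These 5 comparisons share samples and are not independent of each other.

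Ratios within an array do not depend on scaling, so each member was also set against the mean of the 5 members other than let-7g on the same array, giving a relative level (log2). In this form the changes of those 5 members in Star CSC were small. Relative levels of let-7a were 1.098 and 1.07 in Star CSC and 1.07 and 1.06 in Star parent, and those of let-7e were −0.23 and −0.26 against −0.22 and −0.23. Let-7b moved more, at 1.80 and 1.74 in Star CSC against 1.91 and 1.96 in Star parent. The relative changes of the 5 members in Star CSC lay between −0.16 for let-7b and 0.14 for let-7c. These 2 passed on slide 1 (adjusted p = 0.033 and 0.0446), as did let-7g at 0.36 (adjusted p = 0.00248), of which let-7g alone passed without any one of the Star arrays, and 0 of 6 passed in the recovered totals (2 at an unadjusted p below 0.05). The backgrounds were 82% of all tested miRNAs on slide 1 and 23.2% in the recovered totals. By construction, miRNAs outside the family move on this scale whenever the family mean moves, so the counts of members are not read against them.

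The relative changes of the 5 reference members spread wider in Stylo CSC. The relative level of let-7e fell from −0.06 (Stylo parent replicate 1) to −0.54 (Stylo CSC replicate 2) on slide 1. The value table's other 2 columns, with 0.04 for Stylo parent replicate 2 and −0.60 for Stylo CSC replicate 1, showed the same order. Let-7b stood at 2.23 and 2.19 in the Stylo parent columns and 1.99 and 1.95 in the Stylo CSC columns. Let-7a moved the other way, from 0.92 and 1.02 to 1.35 and 1.28, and let-7f from −1.69 and −1.84 to −1.41 and −1.40. The columns of the 2 groups did not overlap for these 4 members. Nor did they for let-7c, at −1.33 and −1.28 in Stylo CSC and −1.42 and −1.42 in Stylo parent. Of all tested miRNAs on this scale, 23.2% did not overlap as higher and 28.6% as lower. Such gaps are thus common with 2 columns a group and are not read as a result about let-7.

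In Stylo CSC the relative changes on slide 1 were −0.49 ± 0.06 for let-7e, −0.29 ± 0.07 for let-7b, 0.35 ± 0.06 for let-7a and 0.29 ± 0.07 for let-7f (limma, adjusted p from 0.00488 to 0.0234). The recovered totals gave −0.57 ± 0.06, −0.24 ± 0.06, 0.34 ± 0.06 and 0.36 ± 0.07 (adjusted p from 0.00382 to 0.0293). Let-7c (0.13 and 0.11) and let-7g (−0.09 and −0.03) did not pass. So 4 of 6 members passed in each set (2 higher, 2 lower), while 58% and 28.6% of all tested miRNAs passed on this scale, the first not far from the members' share. The relative changes of the 5 reference members sum to 0 by construction, so a fall of some fixes a rise of others, and the values show unequal change only. The relative changes of these 4 over all 7 arrays had the same signs, with −0.95 for let-7e, −0.59 for let-7b, 0.42 for let-7a and 0.76 for let-7f, and 0 of 6 passed (adjusted p = 0.339 for these 4, let-7g at 0.53; 0 at an unadjusted p below 0.05; 0% of all tested miRNAs passed). The slide 2 array showed them largest (let-7e −1.48, let-7f −0.45), on the array whose let-7e probes departed from their usual ratio. Let-7e passed whichever column of the recovered totals was left out, and on slide 1 without any one Star array. The slide 1 runs leave the Stylo values unchanged, since no Stylo array can be left out there, so they do not check the fall itself. Let-7a passed without any one of these arrays or columns except Star parent replicate 1 in the recovered totals. The calls of let-7b and let-7f were lost more often, so that the count of members fell to 2 on slide 1 (without either Star parent array) and to 1 in the recovered totals (without Star parent replicate 1).

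Between the parents 3 of 6 members passed on this scale in each set, near the shares of all tested miRNAs given next. On slide 1 let-7b (−0.30), let-7e (−0.17) and let-7f (0.29) passed on the relative scale, and let-7b (−0.28), let-7e (−0.22) and let-7f (0.37) did in the recovered totals (adjusted p from 0.013 to 0.0479), whereas let-7a (0.14 and 0.09) did not pass, against 62% and 42.9% of all tested miRNAs. This comparison and that of Stylo CSC share the Stylo parent samples and are not independent. Between the sorted groups, let-7e was relatively higher in Star CSC in both sets (0.30 and 0.32; adjusted p = 0.00897 and 0.0211), with let-7a (−0.19) and let-7g (0.55) passing on slide 1 alone, for 3 of 6 and 1 of 6 members against 76% and 23.2% of all. The parents' count fell to 0 in both sets without either Star parent array. Between the sorted groups it was 0 in the recovered totals without either Star CSC column, either Star parent column or Stylo CSC replicate 1.

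The difference of the CSC changes, Star minus Stylo, also passed for let-7e on the relative scale, at 0.47 ± 0.08 on slide 1 (adjusted p = 0.00507) and 0.55 ± 0.09 in the recovered totals (adjusted p = 0.00686). It passed in each set with any single array or column left out, except the lone Stylo arrays of slide 1, without which there is no comparison. The slide 1 runs thus leave the Stylo side unchanged. On slide 1 let-7a (−0.33), let-7f (−0.27) and let-7g (0.45, against the same undetected signal) passed too, which made 4 of 6 against 90% of all tested miRNAs, while in the recovered totals let-7e alone did, 1 of 6 against 28.6%. Let-7a was close there, at −0.32 ± 0.09 (adjusted p = 0.0511).

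**Figure D5:**
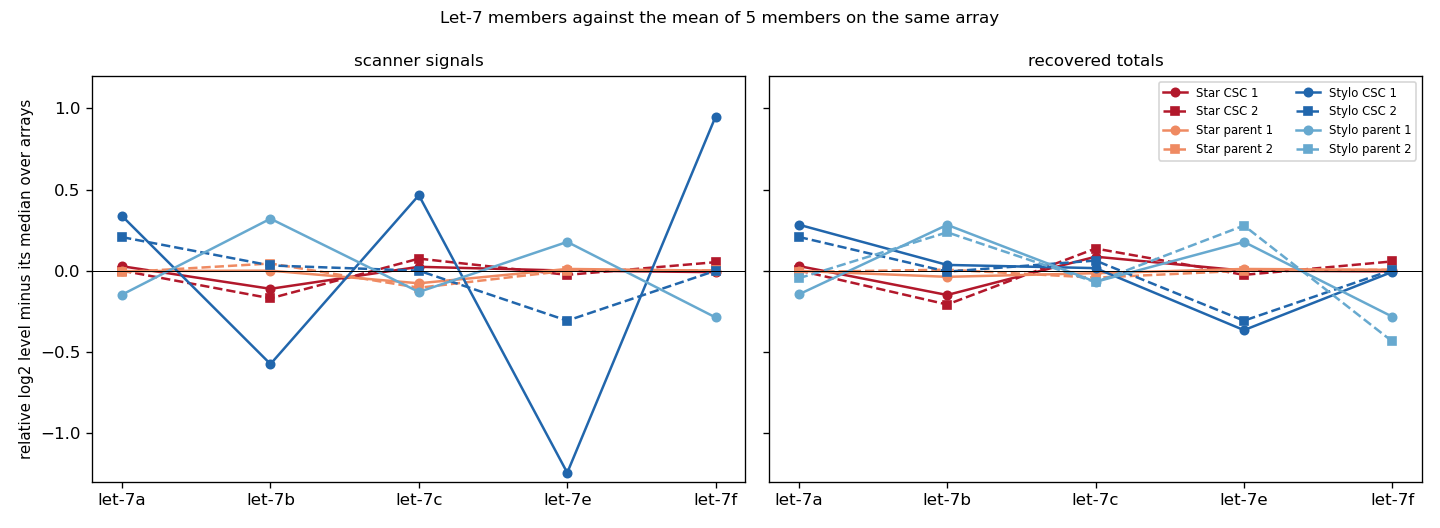
Log2 level of 5 let-7 members relative to their mean on the same array, minus the median of that relative level over the arrays, for the 7 arrays (left) and the 8 columns of the recovered totals (right), with 1 line per array. The Star lines run close to 0, whereas in both panels the Stylo parent lines are high at let-7b and let-7e and low at let-7f and the Stylo CSC lines are low at let-7e; the line of the slide 2 array of Stylo CSC (left) departs furthest.

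Let-7 genes lie in several places of the dog genome, some beside genes of the miR-99 and miR-125 families, with which they can share a primary transcript. In NCBI RefSeq's annotation of the assembly UU_Cfam_GSD_1.0, MIRLET7E has MIR125A and MIR99B within 60 kb, MIRLET7C has MIR99A-1 and MIR125B-2, and MIRLET7A-2 has MIR99A-2 and MIR125B-1. MIRLET7B neighbours MIRLET7A-1, MIRLET7F neighbours MIRLET7D, and MIRLET7G lies in WDR82. Of the cluster list (miR-99a, miR-99b, miR-125a and miR-125b on the array), 2 of 4 were well above background anywhere, miR-125b on 7 arrays and miR-99b on 4. MiR-125b, which itself represses LIN28, went against the let-7 members in Star CSC, at −0.91 ± 0.07 on slide 1 (adjusted p = 0.00759) and −0.81 ± 0.07 in the recovered totals (adjusted p = 0.00098). It was at −0.84 over all 7 arrays (adjusted p = 0.11). In Stylo CSC miR-125b fell by 0.57 and 0.37 (adjusted p = 0.0346 and 0.016), and between the parents it was at 0.08 and −0.03 (adjusted p = 0.525 and 0.871). MiR-99b, let-7e's neighbour, was at 0.52 in Stylo CSC on slide 1 (adjusted p = 0.147) and rose by 1.60 in the recovered totals (adjusted p = 0.0202), where let-7e fell. Over all 7 arrays miR-99b was at 0.22 in Stylo CSC. Its change in the recovered totals had an SE of 0.32. It was well above background on 4 arrays only, so its other values are near the detection limit. The miRNAs reported to repress LIN28 were measured for 2 of 8 (miR-125b and miR-30d). MiR-30d was at 0.01 and 0.02 in Star CSC (adjusted p = 0.968 and 0.971) and, between the parents, at −0.22 on slide 1 (adjusted p = 0.0479), 0.68 in the recovered totals (adjusted p = 0.513) and −0.47 over all 7 arrays (adjusted p = 0.381), so that its direction differed between the sets.

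The miRNAs whose profile over the arrays was most like the mean of the 5 members other than let-7g were found by root mean square distance of mean-centred log2 levels. Over the 6 slide 1 arrays the closest of 44 others was miR-21, a miRNA raised in many tumours, at a distance of 0.0587, followed by miR-16 (0.113) and miR-25 (0.119), which were well above background on 4 and 3 of the 6 arrays. The median of the others was 0.349. MiR-21 was also the closest of 50 over the 8 recovered columns (0.0777, detected in all 8). MiR-106a (0.202) and miR-151 (0.231) came next, detected in 3 and 2 columns only, so their distances rest mostly on undetected values. Over all 7 arrays miR-378 (0.157), miR-140 (0.183) and miR-30d (0.233) were closest of 40, with a median of 0.514.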

How the data were processed

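Spot intensities in the scanner files come background-subtracted from Agilent Feature Extraction 11.5.1.1, per the file headers. The value table deposited by the authors holds log2 values of each miRNA's total signal, centred on each miRNA's median over the 8 columns and shifted per array; the labels do not state the reason for the shift. Differences between its columns were checked against the scanner totals (tolerance 0.01 in log2) for 475 entries. All matched in 6 columns, and 420 and 417 did in those of Stylo CSC replicate 1 and Stylo parent replicate 2. Undetected entries count among these matches. The 2 departing columns held 30 and 25 detected miRNAs, against 38 and 48 in their scanner totals. Both had a shift of 6.14 in log2. Let-7 totals departed too: let-7a was at 322 in Stylo parent replicate 2 and 281 in replicate 1, whose scanner values are identical. Each Stylo group of the recovered totals holds such a column. Identical Stylo parent files left 7 arrays. The number of arrays limits the precision.

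Spots of a probe were averaged without outlier flags, the probes of a miRNA were summed, and arrays were scaled to the 75th percentile of the probes detected on all of them (22 probes, 8 of them let-7; 39 on slide 1; 22 miRNAs in the recovered totals). A common floor was set (log2 −3.61, −2.99 and −4.89) and log2 taken. Because let-7 miRNAs are near-identical in sequence, a probe may also bind other members, and single members are uncertain. No reference sequences were used here. Comparisons used limma 3.58.1 (R 4.3.3), 4 group means in 1 fit, two-sided, with Benjamini-Hochberg adjustment over all tested miRNAs (threshold 0.05). Tables and figures were made in Python 3.11.15. The fit was tested on simulated data with the same spread on every array. That setting lacks the unequal spread of the Stylo CSC arrays, so it does not cover it.

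The members and the lists (cluster, LIN28-repressing, markers) were chosen with earlier results of these data known. Named miRNAs are all members, the tested miRNAs of those lists, and the 3 most alike. Alternatives covered scaling, background, summary per miRNA, filter, arrays, slide or replicate number as a block, and each array left out. Correlations of same-numbered samples' deviations were −0.364, −0.052 and −0.030 over all 7 arrays (46 miRNAs) and −0.577 to 0.475 for the 6 pairs of groups in the recovered totals (56 miRNAs, 2 of 6 above 0.1). Pairing by number would need every pair above 0.1, so the numbers were not taken to pair samples. The planned normexp on the mean signal was not run, since the files used here give the median signal.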

Additional observations from a re-analysis of the deposited data

Results flagged for a closer look

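For some members the change from parent to CSC differed between the lines, in tests of the difference itself (Star minus Stylo, log2, limma). This held on slide 1 and in the recovered totals, where 20% and 17.9% of all tested miRNAs were called higher. Over all 7 arrays 0 of 6 members and 0 of 46 tested miRNAs passed. On slide 1, let-7e differed by 1.03, let-7b by 0.68 and let-7c by 0.57. The value of let-7g was 1.01, against a Stylo parent array on which it was not well above background, so it is a difference from an undetected signal. In the recovered totals let-7e differed by 0.99, let-7b by 0.52 and let-7c by 0.48. The Stylo side of the slide 1 values is 1 array against 1.

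Relative to the mean of the 5 members other than let-7g, the change from parent to CSC differed on slide 1 for let-7e (0.47), let-7a (−0.33), let-7f (−0.27) and, with the same undetected signal, let-7g (0.45), and in the recovered totals for let-7e alone (0.55). On that scale 90% and 28.6% of all tested miRNAs passed for the same difference.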

How the results depend on the processing

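Of 1116 values of single members under alternatives, 1001 kept the direction of the value over all 7 arrays, 108 turned, 7 were 0 under quantile normalization and 343 newly passed the threshold. In Star CSC against Star parent 237 of 240 kept it, 2 were 0 and 1 turned. Counts of members called below follow the order parents, Star CSC, Stylo CSC, sorted groups and difference of the CSC changes, and were 0 in each over all 7 arrays. They were 2, 6, 2, 4 and 4 on slide 1, 6, 6, 3, 4 and 6 with the slide as a block, and 4, 5, 3, 1 and 3 in the deposited value table. Without scaling they were 0, 2, 0, 3 and 1 over all arrays, 0, 6, 0, 6 and 5 on slide 1 and 1, 5, 2, 6 and 4 (all higher) in the value table. With scaling without the let-7 probes, chosen after seeing the data like the other combined settings, they were 0, 1, 0, 0 and 0 over all arrays, 3, 5, 1, 2 and 4 on slide 1 and 2, 5, 2, 1 and 3 in the value table. In Star CSC 1 member passed with quantile normalization, with normexp or without a filter on dim miRNAs, and 1 passed between the sorted groups with quantile normalization. With only the groups of a comparison in the fit, 6 passed between the parents and 6 in Star CSC. With a replicate block 0 passed in every comparison, and crossing the numbers of Star parent gave 0 as well.

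On the relative scale with all 6 members as reference, 0 passed over all arrays. The counts were 3, 2, 4, 4 and 4 on slide 1 and 4, 2, 4, 4 and 4 with the slide as a block, and 3 (parents) and 2 (Star CSC) with only the groups compared. Against the 5 members other than let-7g they were 3, 3, 4, 3 and 4 on slide 1 and 3, 0, 4, 1 and 1 in the value table. Leaving out 1 array gave 0 to 6 level calls (0 to 4 in Stylo CSC) and 0 to 4, 0 to 3, 0 to 6, 0 to 6 and 0 to 6 relative calls, as the lowest and highest over all sets.

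Values that turned between the parents: without scaling, let-7a 0.15, let-7c 0.045, let-7f 0.29 and let-7g 0.0456 over all arrays, 0.15, 0.045, 0.29 and 0.051 on slide 1, and let-7a 0.049, let-7f 0.32 and let-7g 0.61 in the value table. Let-7f was at 0.019 with scanner gene totals, let-7g at 0.50 in the value table, and with scaling without let-7 these were 0.038 and 0.49 there. In Stylo CSC, let-7a turned to 0.43 in the value table (0.53 without scaling, 0.38 without let-7 in the scaling), 0.23 on slide 1 (0.53 and 0.32), 0.040 with the slide as a block and 0.093 with scanner gene totals. Let-7c turned to 0.20 in the value table (0.30 and 0.15), 0.0048 on slide 1 (0.31 and 0.10) and 0.038 with gene totals. Let-7f turned to −0.48 with scaling over all probes (−0.12 on slide 1), −0.032 with normexp and −0.026 with the slide as a block. Let-7g turned to 0.065 in the value table (0.12 and 0.0018), 0.024 on slide 1 without scaling, 0.0093 over all arrays without scaling, 0.15 with quantile normalization and 0.29 with gene totals. Between the sorted groups let-7a turned to −0.16 (−0.014 without let-7 in the scaling) and let-7b to −0.13 in the value table, and to −0.053 and −0.0328 on slide 1 without let-7 in the scaling. With normexp let-7g was at −0.11 in Star CSC and −0.35 between the sorted groups. Leaving out 1 array within a set gave, over all 7 arrays and then in the recovered totals: in Stylo CSC, let-7a −0.65 to 0.23 and 0.28 to 0.48, let-7c −0.54 to 0.0048 and −0.0080 to 0.21, let-7g −0.22 to 0.0080 and −0.87 to 0.89. Between the parents let-7f gave −0.28 to −0.023 and −0.069 to 0.081, let-7g −0.47 to −0.21 and −0.14 to 1.47. Between the sorted groups let-7a gave 0.055 to 0.75 and −0.21 to −0.052, let-7b 0.075 to 1.51 and −0.15 to −0.015, and in the difference let-7g gave 0.85 to 1.07 and −0.11 to 1.66. On slide 1 let-7f between the parents ran from −0.061 to 0.015. The causes were not tested. Signal over background limits let-7g most, and a lone array left in a group is assumed to vary like the other groups.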
